A study of Mus musculus with 6 samples.

Results

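The 8 genes described here are the measured MHC class II antigen-presentation genes H2-Aa, H2-Ab1, H2-Eb1, Cd74, H2-DMa, H2-Oa and H2-Ob together with Ciita, their transactivator, out of 18193 genes on the arrays. Each was matched by its gene symbol among probe sets annotated to 1 symbol, and where a gene had several, the brightest on average stood for it. All 8 were found, with 16 probe sets between them. Levels are log2 values on which arrays had been made alike in distribution, so a step of 1 is a doubling of signal, and levels are compared between arrays for the same probe set only.

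The series profiled 3 Cdh1-deficient and 3 Cdh1-intact B-cell acute lymphoblastic leukaemias (B-ALL) of C57BL/6 mice, 1 array per moribund mouse. Donors of both groups were homozygous for a conditional gene-trap allele of Cdh1 (Cdh1f/f), an activator of the anaphase-promoting complex that is encoded by Fzr1, and came from shared litters. Mx1-Cre(+) donors, in which Cre can act on the allele, were set against Mx1-Cre(-) littermates, and both received pIpC at 7 to 8 weeks of age. The Mx1 promoter answers to interferon, which pIpC induces, and it is active in many cell types beside blood. Marrow mononuclear cells were taken 4 weeks after the last pIpC dose and 2 days after 150 mg/kg 5-fluorouracil. N-myc was carried by the retroviral vector pMXs-IG, and GFP-positive marrow mononuclear cells of each leukaemic mouse were sorted for RNA. Both groups therefore share the N-myc vector, pIpC and the floxed allele.

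MHC class II molecules present peptides from endosomes to CD4 T cells and are made by B cells, dendritic cells and macrophages. H2-Aa and H2-Ab1 encode the alpha and beta chains of I-A, and H2-Eb1 the beta chain of I-E, whose alpha chain is not made in C57BL/6 mice. Cd74, the invariant chain, fills the peptide groove until it is cleaved to the fragment CLIP. DM, of which H2-DMa encodes the alpha chain, exchanges CLIP for peptide, and DO, made of H2-Oa and H2-Ob, inhibits DM, mainly in B cells. Ciita does not bind DNA itself. It is recruited by the RFX complex, CREB and NF-Y, which sit on an X box and a Y box in the promoters of these genes.

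The promoter stretches below are shown because 4 of the 5 genes that had a promoter window share the X and Y boxes in sequence. They were read from the RefSeq promoter windows of GRCm38.p6, which cover 250 bases before and 50 after a gene's start, and lie on chromosome 17 upstream of the start. Capitals mark a core of the X box, GNAAC, and the Y box, GATTGG, both in the direction of transcription.
H2-Aa (chr17:34287861-34287910, minus strand): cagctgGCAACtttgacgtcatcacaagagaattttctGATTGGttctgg
H2-Eb1 (chr17:34305770-34305818, plus strand): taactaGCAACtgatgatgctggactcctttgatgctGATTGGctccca
H2-Oa (chr17:34092297-34092346, plus strand): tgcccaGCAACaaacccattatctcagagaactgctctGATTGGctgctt
H2-Ob (chr17:34238812-34238858, plus strand): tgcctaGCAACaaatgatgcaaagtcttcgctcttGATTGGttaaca

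The gap between the 2 boxes was 27 bases in H2-Aa, 26 in H2-Eb1, 27 in H2-Oa and 24 in H2-Ob. The X core began 81, 91, 76 and 87 bases before the start in the same order. GNAAC followed by GATTGG after 15 to 35 bases, on either strand, was present in 396 of 32851 promoter windows, or 1.21%. Singly, GNAAC occurred on either strand in 84.8% of windows and GATTGG in 16.1%. These letters were chosen after the sequences had been read, and a match is a description and not a binding site. H2-DMa had 2 windows, and neither held the pair. H2-Ab1, Cd74 and Ciita have no printed window. The pair was also present in the windows of H2-Eb2, a second beta chain gene, and H2-DMb1, a DM beta chain gene. The window of H2-DMb2, the other DM beta chain gene, held each motif singly but not the pair.

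Before the results, 1 library has to be set apart. Cdh1-intact array 2 stood alone on the first principal component, at 96.2 against −22.9 to −12.7 for the other 5 arrays, with 58.2% of the variance. On that array 13 of 15 measured B-cell markers were at their lowest, and the mean level of the list was 5.69 against 8.59 to 9.37 elsewhere. Of 16 measured T and NK cell markers 8 were at their highest there and 3 at their lowest. The list averaged 7.61 against 4.98 to 5.93 elsewhere, carried by genes such as Cd3d, a T-cell receptor subunit, at 12.55, while others such as Cd8a (5.27; chosen after its values were seen) stayed at the level of the other arrays. Its low B-cell and high T-cell transcripts go against the label of a B-cell leukaemia. Not all B-cell markers were near the floor there. Ighm (11.2) and Cd24a (12.0), chosen after their values were seen, were at their lowest on that array but still high on the scale. Cdh1-intact array 3 also held some T and NK transcripts, beside B-cell markers at a mean of 9.37. Cd3d was at 8.69 there, against 5.09 to 5.41 on the Cdh1-deficient arrays, and Gzma at 8.33, against 4.16 to 4.36. Cd3g, chosen after its values were seen, was at 7.95, against 3.31 to 3.52. Others of the T and NK list were not raised there. Cd8a (5.04) and Gzmb (3.62), both chosen after their values were seen, were at their lowest on that array. Fzr1 lay at 8.10, 7.73 and 8.22 on the Cdh1-deficient arrays 1 to 3, and at 8.92, 8.04 and 8.92 on the Cdh1-intact arrays. The position of its probes against the gene trap was not known here, and these levels do not settle a genotype. The differences of the 8 genes and the list medians below are given with and without Cdh1-intact array 2, as are those of other genes where that array moved the value by much. In sorted cells profiled in bulk, fewer cells of a type and less RNA per cell cannot be told apart.

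Of the 8 genes, 7 had their lowest level on Cdh1-intact array 2 and H2-DMa its highest. No difference between Cdh1-deficient and Cdh1-intact cells passed the test for any of the 8. With limma and Benjamini-Hochberg adjustment over all genes, 0 of 8 had an adjusted p under 0.05, and 0 of 8 had an unadjusted p under 0.05. Over all genes 0% were called, and 5.5% had an unadjusted p under 0.05. In none of the 8 did the 3 Cdh1-deficient arrays lie wholly above or below the 3 Cdh1-intact arrays, which 11.7% of all genes did.

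**Figure D1:**
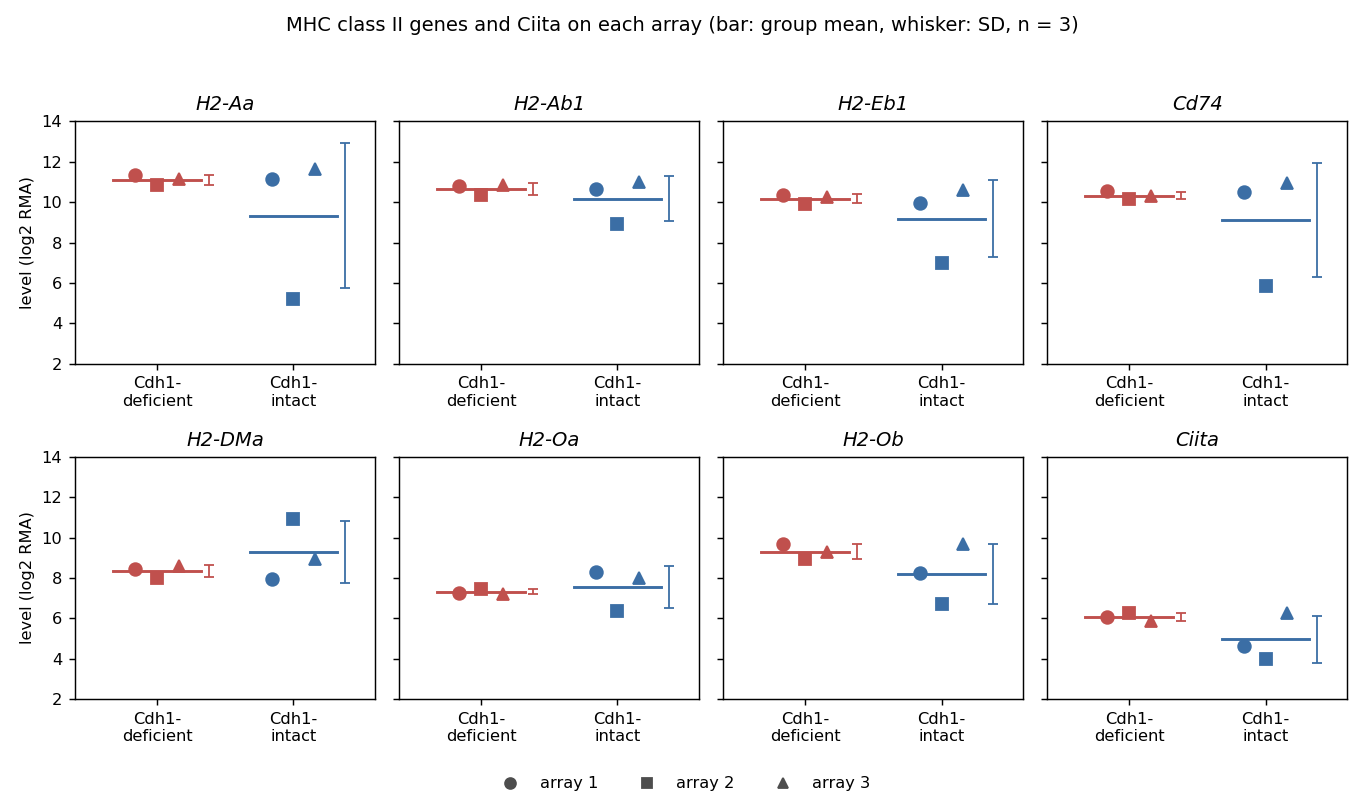
Log2 level (vertical axis) of each of the 8 genes on each array, with Cdh1-deficient arrays in red and Cdh1-intact arrays in blue. The symbol gives the array number, bars are group means and whiskers the SD (n = 3 each). Cdh1-intact array 2 (blue square) is the lowest point for 7 genes and the highest for H2-DMa, and the Cdh1-deficient points lie close together.

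H2-Aa, the I-A alpha chain, lay at 11.32, 10.85 and 11.13 on the Cdh1-deficient arrays 1, 2 and 3, and at 11.15, 5.19 and 11.62 on the Cdh1-intact arrays 1, 2 and 3. Only Cdh1-intact array 2 was low, 5.66 below the lowest of the other arrays, and the groups overlapped. Its rank within each array restates these levels, since the arrays had been made alike in distribution. On the Cdh1-deficient arrays 94.0% to 96.0% of genes lay below H2-Aa, against 95.5%, 41.6% and 97.0% on the Cdh1-intact arrays. The group difference of 1.78 (SE 1.71, 95% interval −2.41 to 5.97) had an adjusted p of 0.860 in limma. Without Cdh1-intact array 2 it was −0.28 (SE 0.21, adjusted p = 0.857).

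H2-Ab1, the I-A beta chain, lay at 10.80, 10.33 and 10.82 on the Cdh1-deficient arrays, and at 10.63, 8.90 and 11.01 on the Cdh1-intact arrays. Cdh1-intact array 2 was again the lowest, but by 1.43, less than the 5.66 of its partner chain H2-Aa. The difference between groups was 0.47 (SE 0.56, limma adjusted p = 0.886) with all arrays and −0.17 (SE 0.21, adjusted p = 0.912) without that array.

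H2-Eb1, the I-E beta chain, lay at 10.37, 9.92 and 10.24 on the Cdh1-deficient arrays, and at 9.93, 7.01 and 10.59 on the Cdh1-intact arrays. Cdh1-intact array 2 was 2.92 below the next lowest, and the remaining 5 arrays spanned 0.66. The groups differed by 1.00 (SE 0.91, limma adjusted p = 0.858), and by −0.08 (SE 0.24, adjusted p = 0.971) without array 2. Of the other chain genes, H2-Ea is a transcribed pseudogene in the RefSeq table. Its brightest set stayed between 7.66 and 7.82 on the Cdh1-deficient and 7.41 and 7.97 on the Cdh1-intact arrays. Its other sets lay at 3.93 to 4.46 and at 2.97 to 3.12 over all arrays, close to the floor, so its level depends on the set. In the brightest set Cdh1-intact array 2, at 7.69, was not set apart. H2-Eb2 was highest on that array, at 8.18 against 7.05 to 7.46 on the Cdh1-deficient arrays and 7.21 and 7.26 on Cdh1-intact arrays 1 and 3.

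Cd74, the invariant chain on chromosome 18, followed H2-Aa most closely. It lay at 10.53, 10.14 and 10.30 on the Cdh1-deficient arrays, and at 10.48, 5.86 and 10.96 on the Cdh1-intact arrays. Cdh1-intact array 2 was 4.28 below the next lowest array. Pearson's r with H2-Aa was 0.999 over the 6 arrays and 0.971 over the 5 without that array, a description over few points that share arrays and scaling. The group difference was 1.22 (SE 1.34, limma adjusted p = 0.876), or −0.40 (SE 0.20, adjusted p = 0.823) without array 2.

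H2-DMa, the DM alpha chain, ran the other way. Its levels were 8.44, 8.01 and 8.59 on the Cdh1-deficient arrays, and 7.94, 10.94 and 8.93 on the Cdh1-intact arrays. Cdh1-intact array 2 was the highest, as it was for 21.7% of all genes, 2.01 above the next, and there 94.8% of genes lay below it, against 68.4% to 74.4% on the Cdh1-deficient arrays and 69.8% and 78.6% on Cdh1-intact arrays 1 and 3. Its second probe set also had array 2 on top, at 7.15 against 5.05 to 5.30 on the Cdh1-deficient arrays and 5.04 and 5.00 on the other Cdh1-intact arrays. The group difference was −0.92 (SE 0.74, limma adjusted p = 0.849), and −0.09 (SE 0.34, adjusted p = 0.978) without array 2. On the other 5 arrays the H2-DMa set used went with the chains, with r = 0.954 to H2-Eb1, while over all 6 that r was −0.863. The second set did not share that order. Cdh1-intact array 3, the highest of those 5 arrays in the set used (8.93), was the lowest in the second (5.00).

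H2-DMb2 encodes a beta chain of DM and was measured for comparison with its partner. It lay at 9.48, 8.77 and 9.44 on the Cdh1-deficient arrays, and at 7.67, 6.54 and 9.78 on the Cdh1-intact arrays. Unlike H2-DMa it was lowest on Cdh1-intact array 2 and also low on Cdh1-intact array 1. The difference of 1.23 (SE 0.81, limma adjusted p = 0.849) did not pass, and was 0.50 (SE 0.63, adjusted p = 0.911) without array 2. Another 2 probe sets carry the symbols of both DM beta genes and were not used, and signal of these near copies may be shared.

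H2-Ob, the beta chain of DO, was close to that pattern. It lay at 9.66, 8.92 and 9.29 on the Cdh1-deficient arrays, and at 8.23, 6.71 and 9.66 on the Cdh1-intact arrays. Cdh1-intact arrays 1 and 2 were below all others, and Cdh1-intact array 3 was level with Cdh1-deficient array 1. The group difference was 1.09 (SE 0.72, limma adjusted p = 0.849), and 0.34 (SE 0.45, adjusted p = 0.914) without array 2.

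H2-Oa, the alpha chain of DO, did not follow its partner. Its levels were 7.24, 7.45 and 7.23 on the Cdh1-deficient arrays, and 8.28, 6.36 and 7.98 on the Cdh1-intact arrays. Cdh1-intact array 1, low for H2-Ob, was the highest for H2-Oa, and array 2 was the lowest for both. Over the 5 arrays without Cdh1-intact array 2, r between the DO chains was −0.557. With all arrays the groups overlapped and differed by −0.24 (SE 0.50, limma adjusted p = 0.937). Without array 2 all 3 Cdh1-deficient arrays lay below both Cdh1-intact arrays, with a difference of −0.83 (SE 0.15, 95% interval −1.20 to −0.45). It had the only unadjusted limma p under 0.05 of the 8 in that setting, which 6.17% of all genes had, and an adjusted p of 0.801, so it did not pass. Of the 8 genes, H2-Oa alone had groups that did not overlap in that setting, which 21.4% of all genes did.

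Ciita, on chromosome 16, was near the middle of the scale on the Cdh1-deficient arrays, with 49.3% to 52.3% of genes below it. On the Cdh1-intact arrays 1, 2 and 3 that share was 31.7%, 20.7% and 53.1%. Its levels were 6.08, 6.26 and 5.86 on the Cdh1-deficient arrays, and 4.64, 3.99 and 6.25 on the Cdh1-intact arrays. The 3.99 of Cdh1-intact array 2 was close to the floor. Cdh1-intact arrays 1 and 2 were both below the other 4 arrays, and Cdh1-intact array 3 was at the level of the Cdh1-deficient cells. The difference of 1.11 (SE 0.57, 95% interval −0.28 to 2.49) had an unadjusted p of 0.0985 and a limma adjusted p of 0.849. Without array 2 it was 0.62 (SE 0.47, adjusted p = 0.857).

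On Cdh1-intact array 1 low Ciita stood beside chain and Cd74 levels within the range of the Cdh1-deficient arrays. Ciita was there 1.22 below the lowest Cdh1-deficient array, and H2-Ob 0.69 below. In contrast H2-Aa was 0.29, H2-Ab1 0.30, Cd74 0.34 and H2-Eb1 0.01 above the lowest Cdh1-deficient array. Over the 5 arrays without Cdh1-intact array 2, r with Ciita was 0.824 for H2-Ob, 0.520 for H2-Eb1, 0.156 for H2-Aa, 0.119 for H2-Ab1, 0.0733 for Cd74 and −0.635 for H2-Oa. These values describe 5 points each and hold for the Ciita probe set used. In the second Ciita set, Cdh1-deficient array 2 was the lowest of its group, at 5.29 against 5.99 and 5.75. That array was also the lowest of its group for the chains and Cd74. No r was computed for that set, so these values do not show that Ciita and the chains go apart. Cdh1-intact array 1 also carried the highest macrophage markers: the 12 measured markers of that list averaged 6.96, against 5.70 to 6.21 on the Cdh1-deficient arrays and 4.88 and 5.60 on Cdh1-intact arrays 2 and 3. Macrophages make class II as well. The part of these cells in the class II level of that array was not tested. Of these 12, 8 were at their highest on Cdh1-intact array 1, among them the complement gene C1qb at 7.86 against 5.55 to 5.86 on the Cdh1-deficient arrays and 5.65 and 5.94 on Cdh1-intact arrays 2 and 3. The 12 measured dendritic cell markers averaged 6.47 to 6.57 on the Cdh1-deficient arrays, and 6.64, 5.86 and 6.39 on the Cdh1-intact arrays. Xcr1 (3.27 to 3.51) and Itgax (3.78 to 4.11), named after their values were seen, were near the floor on all arrays. Flt3 and Tcf4, which B-lineage cells can express too, lay at 8.02 and 8.91 on Cdh1-intact array 1. Cst3 (11.97) and Bst2 (9.41), also named after their values were seen, were the highest of the list on that array.

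**Figure D2:**
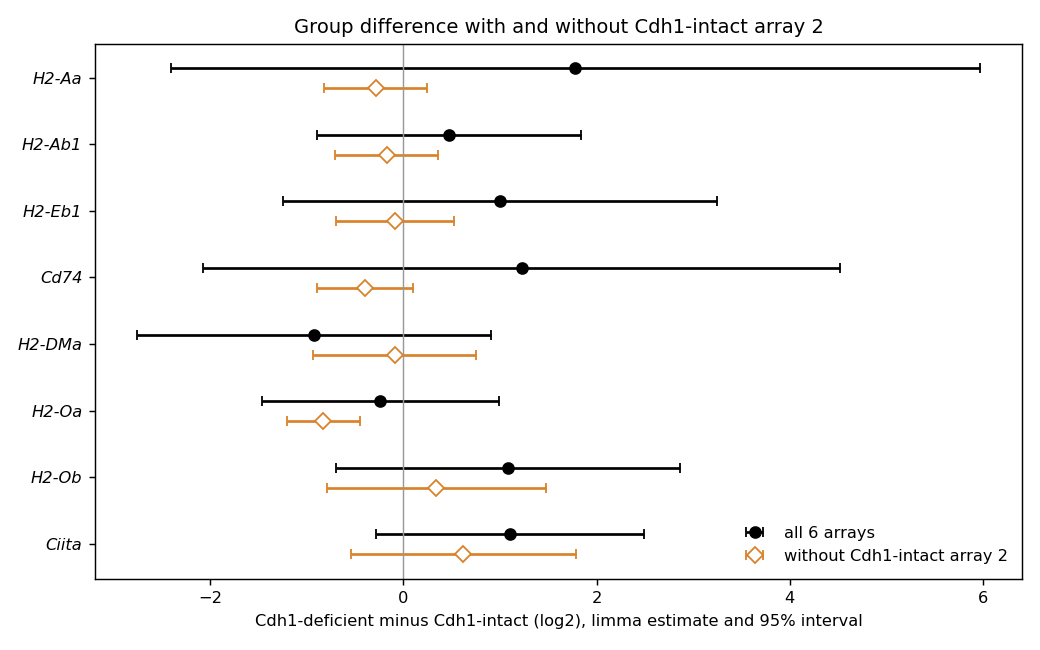
Difference of Cdh1-deficient minus Cdh1-intact cells (horizontal axis, log2) for each gene, with the 95% interval of limma. Filled circles use all 6 arrays, and open diamonds leave out Cdh1-intact array 2. The intervals for H2-Aa and Cd74 shrink most without that array, and that of H2-Oa alone then lies off 0.

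As a group, 6 of the 8 genes were higher and 2 lower in Cdh1-deficient cells, with a median difference of 1.04, against 0.0034 over all genes, of which 50.9% were higher. Without Cdh1-intact array 2, 2 of 8 were higher (Ciita and H2-Ob) and 6 lower, with a median of −0.13, against 0.0035 over all genes and 50.8% higher. The sign of the median was thus set by 1 library. On that library 7 of 8 members were at their lowest, as were 24% of all genes. For 5 of 8 (H2-Aa, Cd74, H2-Eb1, H2-Ob and H2-Ab1) it lay more than 1 below every other array, which held for 3% of all genes. For H2-Aa and Cd74 it lay more than 3 below, which held for 0.698%.

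Spread among the Cdh1-deficient leukaemias was small, with SDs between 0.12 for H2-Oa and 0.37 for H2-Ob (n = 3). Cdh1-deficient array 2 had the lowest level within its group for 6 of 8 genes, the exceptions being H2-Oa and Ciita. The exception of Ciita held for the set used, since in the second Ciita set that array was the lowest of its group (5.29). That array also held the highest neutrophil markers, at a list mean of 10.62 against 8.59 and 9.38 on Cdh1-deficient arrays 1 and 3 and 9.40, 5.82 and 8.54 on the Cdh1-intact arrays, and the part of neutrophil RNA in those lower class II levels was not tested. Cdh1-intact array 3 was the highest of the 5 arrays without array 2 for 6 of 8 genes, though for H2-Ob it exceeded Cdh1-deficient array 1 by less than 0.01.

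For genes with several probe sets, Cdh1-intact array 2 was at the same extreme in every set. The order of the other arrays was not always shared, as for H2-DMa and Ciita. All 4 H2-Aa sets had Cdh1-intact array 2 as the lowest, with ranges over the 6 arrays of 4.88 to 6.43. The 3 H2-Ab1 sets spanned 2.11 to 2.31 with the same array lowest. For Ciita, the second set lay at 5.99, 5.29 and 5.75 on the Cdh1-deficient arrays, and at 4.80, 4.51 and 5.99 on the Cdh1-intact arrays, again with Cdh1-intact arrays 1 and 2 lowest. The remaining set stayed between 3.24 and 3.83, close to the floor, and did not show that order.

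**Figure D3:**
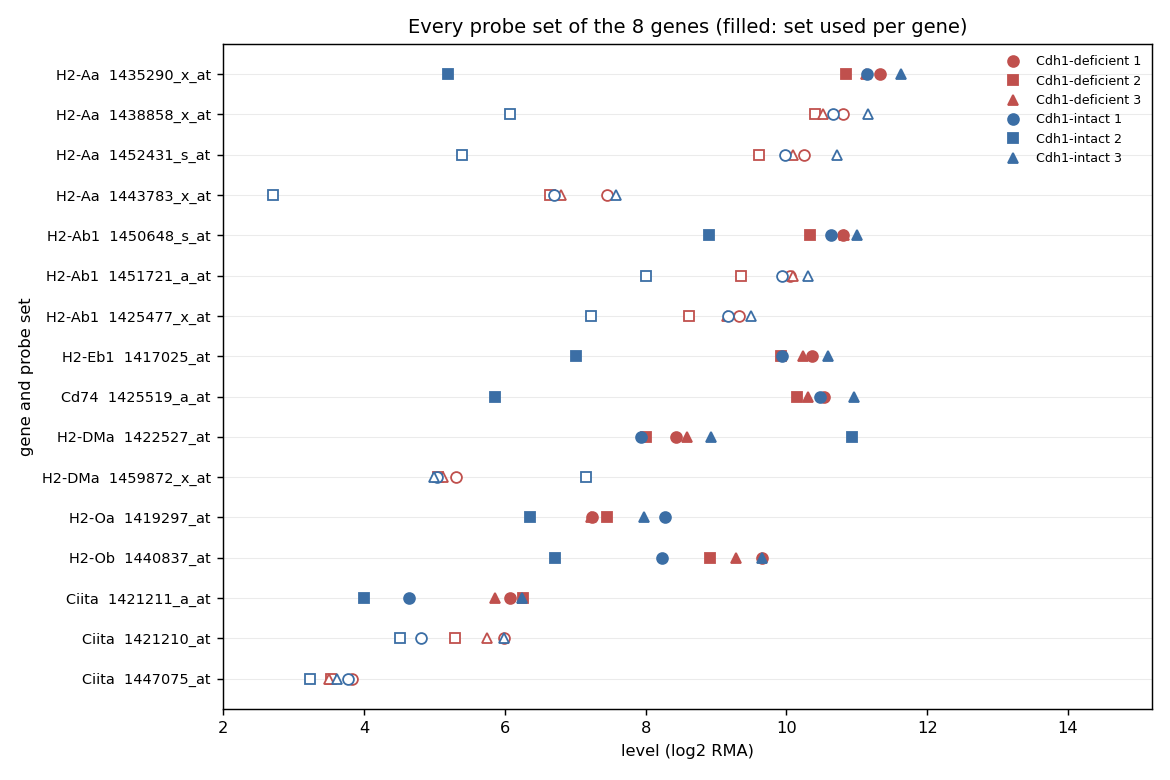
Log2 level (horizontal axis) of each of the 16 probe sets of the 8 genes, 1 row per set, with 1 symbol per array. Filled symbols mark the set used for the gene. The blue square of Cdh1-intact array 2 is leftmost in every row except the 2 of H2-DMa, where it is rightmost.

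Of 12 measured genes of class II transcription, 9 were higher and 3 lower in Cdh1-deficient cells. With limma over all genes 0 passed, and 2 had an unadjusted p under 0.05, as did 5.5% of all genes. The median difference was 0.24, or 0.17 without array 2, with 8 higher and 4 lower. One of the 2 with an unadjusted p under 0.05 was Rfxap, an RFX subunit, which lay at 9.10, 9.05 and 9.13 on the Cdh1-deficient arrays and at 8.76, 8.10 and 8.63 on the Cdh1-intact arrays. The groups did not overlap, as for 11.7% of all genes, and the difference was 0.60 (SE 0.19, limma adjusted p = 0.849), or 0.40 without array 2. The coactivator gene Ep300 had the smallest p of the list, with a difference of 0.56 (SE 0.13, limma adjusted p = 0.849) and groups apart at 9.11 to 9.21 in Cdh1-deficient and 8.43 to 8.82 in Cdh1-intact cells.

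Rfx5, a DNA-binding subunit of the RFX complex, lay at 8.19, 8.32 and 8.19 on the Cdh1-deficient arrays, and at 7.19, 7.94 and 7.97 on the Cdh1-intact arrays. It was lowest on Cdh1-intact array 1, one of the 2 arrays with low Ciita, and differed by 0.54 (SE 0.23, limma adjusted p = 0.849), or 0.66 (SE 0.24) without array 2. The NF-Y subunit Nfya was low on the same array, at 7.27 against 8.60 to 8.94 on the Cdh1-deficient arrays and 8.26 and 8.95 on Cdh1-intact arrays 2 and 3. Its difference was 0.62 (SE 0.42), or 0.67 (SE 0.48) without array 2. Rfxank (0.13), Nfyc (0.12) and Nfyb (−0.21) had smaller differences. On Cdh1-intact array 2, 5 of the 12 genes, Ciita included, were at their lowest and 3 at their highest. Rfxap (8.10) and Nfyc (9.20) were below every other array there, Rfx5 (7.94), Rfxank (6.41) and Nfya (8.26) within the range of the others, and Nfyb (9.53) above it.

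**Figure D4:**
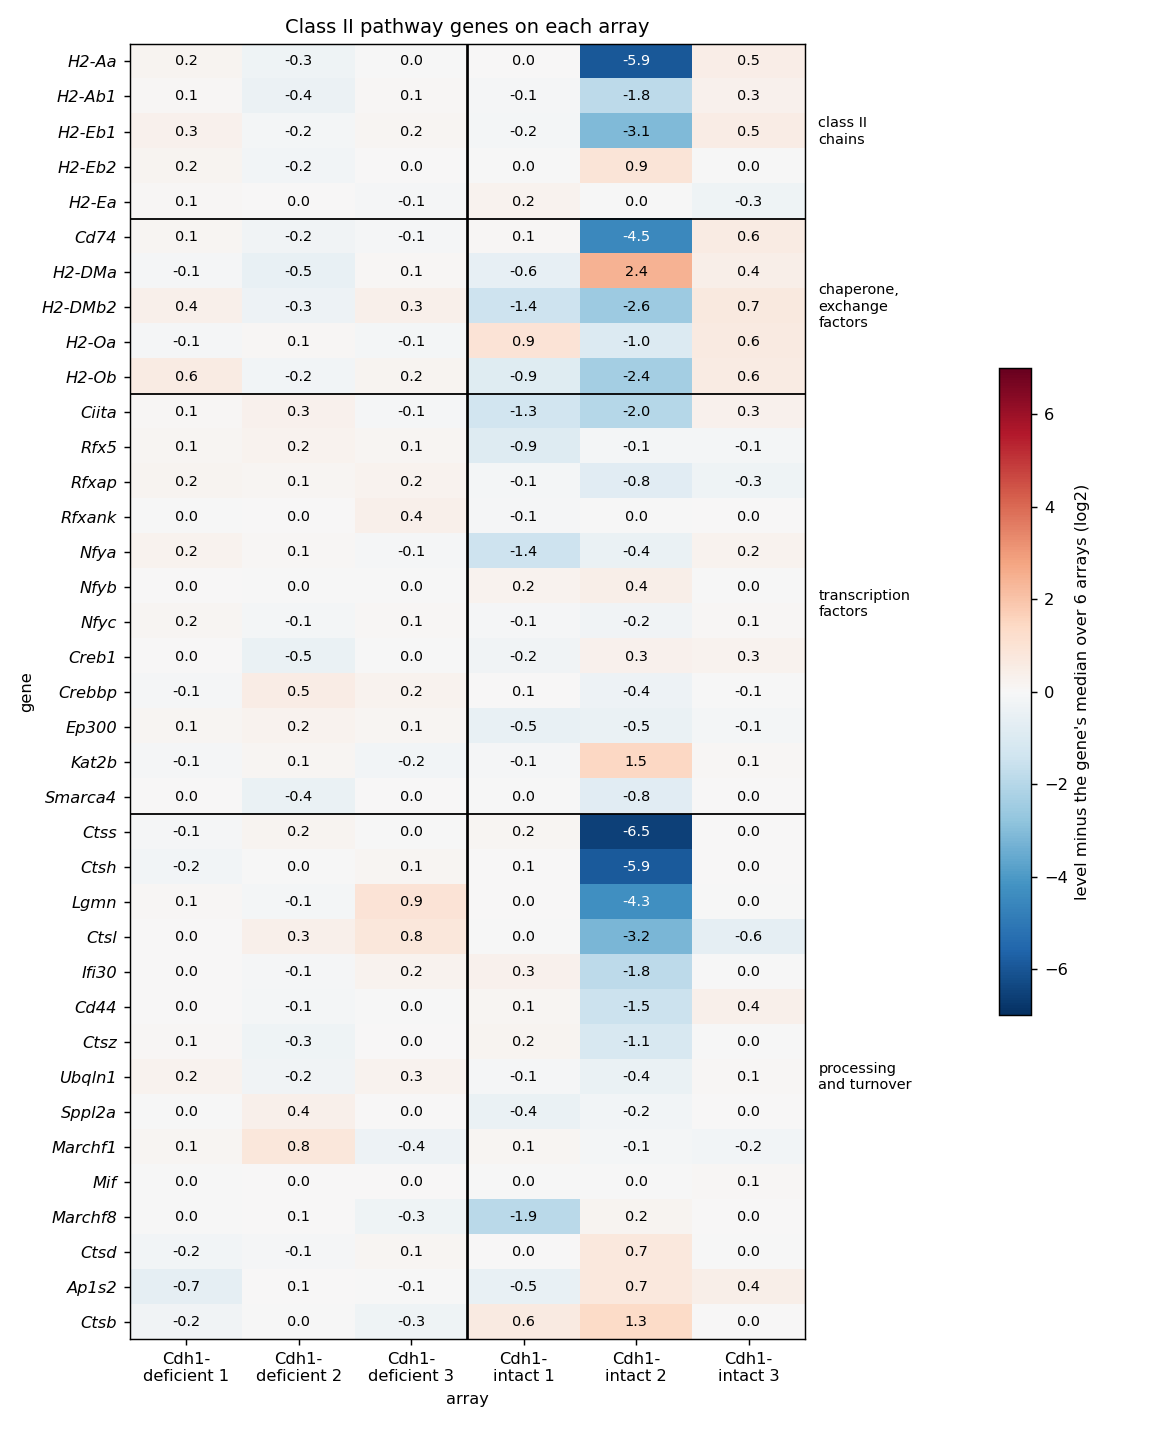
Level of each class II pathway gene on each array minus that gene's median over the 6 arrays (log2; red above, blue below), with Cdh1-deficient arrays left of the line. Rows are grouped by role and the processing genes ordered by their value on Cdh1-intact array 2. That array is darkest blue for Ctss, H2-Aa, Ctsh and Cd74 and darkest red for H2-DMa, genes picked out for these values.

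Genes of class II antigen processing and turnover divided in the same way on Cdh1-intact array 2. Of 15 measured, 12 were higher and 3 lower in Cdh1-deficient cells, with a median of 0.30, and 0 passed with limma. Without array 2 the median was −0.04, with 6 higher and 9 lower. Ctss, the protease that trims the invariant chain in B cells, was named after its values were seen. It lay at 11.70, 11.98 and 11.74 on the Cdh1-deficient arrays, and at 11.94, 5.24 and 11.82 on the Cdh1-intact arrays, so that array 2 was alone in being low, as for Cd74. Ctsl, a related protease, differed by 1.67 (SE 0.82, limma adjusted p = 0.849), or 0.72 (SE 0.30) without that array, where it was at 5.06. The lysosomal protease Ctsb had the smallest p of the list and differed by −0.82 (SE 0.33, adjusted p = 0.849), with array 2 the highest at 11.23, and by −0.48 (SE 0.22) without it. Sppl2a, which cleaves the remnant of the invariant chain in the membrane, differed by 0.33 (SE 0.17).

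Interferon gamma drives Ciita in cells that do not make it by default. Of 10 measured genes of this route, 2 were higher and 8 lower in Cdh1-deficient cells, with a median of −0.42 and 0 passing with limma. Without array 2 the median was −0.15, with 3 higher and 7 lower. The transcription factor gene Irf1 lay at 8.11, 8.09 and 7.91 on the Cdh1-deficient arrays, below the 8.95, 9.31 and 8.51 of the Cdh1-intact arrays. Its difference of −0.89 (SE 0.21) had a limma adjusted p of 0.849, and was −0.70 (SE 0.17) without array 2. Irf1 was thus highest on the array where Ciita was lowest. Ifng itself lay at 3.12 to 3.35 on the Cdh1-deficient arrays and at 3.62, 5.24 and 3.77 on the Cdh1-intact arrays, near the floor except on array 2, and Jak2, a kinase of its receptor, differed by −0.92 (SE 0.47), or −0.39 (SE 0.22) without array 2.

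Of 12 genes that act on Ciita in B cells and plasma cells, 9 were higher and 3 lower, with a median of 0.23 and 0 passing with limma. Without array 2 the direction turned, with 5 higher, 7 lower and a median of −0.26. Irf8, a lymphoid and myeloid transcription factor, lay at 10.00, 10.29 and 9.48 on the Cdh1-deficient arrays, and at 8.63, 9.25 and 10.27 on the Cdh1-intact arrays. Cdh1-intact arrays 1 and 2 were lowest, as for Ciita, and the difference was 0.54 (SE 0.45, adjusted p = 0.851). Prdm1, the plasma cell repressor of Ciita, stayed between 2.92 and 3.02 in Cdh1-deficient and 2.92 and 3.47 in Cdh1-intact cells, close to the floor. Xbp1, a plasma cell factor, differed by 0.19 (SE 0.20). Among 12 genes of costimulation and presentation by B cells the median was 0.08, with 7 higher and 5 lower and 0 passing. It turned to −0.14 without array 2, with 4 higher and 8 lower. Of these, the inhibitory receptor gene Btla was at 9.62, 10.59 and 9.72 on the Cdh1-deficient arrays, and at 9.09, 5.03 and 9.40 on the Cdh1-intact arrays, a difference of 2.13 (SE 1.19), or 0.73 (SE 0.32) without array 2. Cd22, a B-cell lectin, lay at 10.87 to 11.32 on the Cdh1-deficient arrays, and at 10.95, 6.00 and 11.17 on the Cdh1-intact arrays, whereas Fcer2a stayed between 3.52 and 3.84 throughout.

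The genes whose pattern over the 6 arrays was most like the mean of the 8 members came from several chromosomes. Among 9090 other genes at or above the median level, the 8 with the highest Pearson's r were Kctd5 (0.997), Plekhf2 (0.996), Ddx31 (0.996), Homer1 (0.996), Septin10 (0.995), Pafah1b3 (0.994), Trim11 (0.993) and Arhgap17 (0.993). In all, 253 genes had an r above 0.95, with Cdh1-intact array 2 as the shared low point. For Ciita alone the highest were Prps1 (0.998), Spryd7 (0.995) and Bahd1 (0.995), which shared low values on Cdh1-intact arrays 1 and 2. Bahd1, for example, lay at 9.19, 9.37 and 9.16 on the Cdh1-deficient arrays, and at 8.43, 8.05 and 9.46 on the Cdh1-intact arrays.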

How the data were processed

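The deposited table holds log2 values per probe set, which the authors made with RMA, per the submitters' processing notes; no version or probe definition is given in the sources used here. RMA quantile-normalizes arrays, so a change of total RNA per cell is not visible. Of 45101 probe sets, 34945 carried 1 symbol in the platform annotation of 2016 and gave 18193 genes, each by its probe set with the highest mean. There was no filter on level. Groups came from the sample titles. The comparison used the lmFit and eBayes functions of limma 3.58.1 under R 4.3.3 (two-sided, 3 arrays per group), with Benjamini-Hochberg adjustment over all genes and a threshold of 0.05. The labels give 1 moribund mouse per array, and the number of arrays limits the precision. The fit was tested on simulated data. A permutation of 3 against 3 arrays has a smallest p of 0.1 and was not used. Promoter windows came from RefSeq, matched by symbol for 5 of 8 genes. The members and lists were chosen with earlier results of these data known, and lists are described without a test. Named beside the members were Fzr1, which encodes Cdh1, the pathway lists' chain, exchange, RFX and NF-Y genes, and the genes of highest correlation. Up to 3 genes of smallest p per list, markers included, were also named. Others are said to be chosen after their values were seen or picked out for them. Cell type markers served to describe arrays.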

Additional observations from a re-analysis of the deposited data

How the results depend on the processing

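No gene passed the threshold in the main limma fit or in any of 16 alternatives, 10 of processing and 6 that left out 1 array, and none of the 8 members did. At an unadjusted p under 0.05, 1000 genes were counted in the main fit and 442 to 1751 with 1 array left out. The members' median difference of 1.04 ranged from 0.71 (array weights) to 1.04 over the processing alternatives, and from −0.13 (without Cdh1-intact array 2) to 1.73 (without Cdh1-intact array 3) in the fits on 5 arrays. The differences of H2-Aa (−0.28), H2-Ab1 (−0.17), H2-Eb1 (−0.085) and Cd74 (−0.40) changed sign when Cdh1-intact array 2 was dropped, and that of H2-Oa (0.13) when Cdh1-intact array 1 was. Over the fits on 5 arrays these reached 2.93 for H2-Aa, 0.89 for H2-Ab1, 1.71 for H2-Eb1 and 2.15 for Cd74 at the upper end, and −0.83 for H2-Oa at the lower end. Ciita stayed positive (0.59 to 1.75), as did H2-Ob (0.34 to 1.82), and H2-DMa stayed negative (−1.59 to −0.09), over all 16. No H2-Aa probe set was left without shared-target suffixes. Same-numbered arrays of the groups correlated in their deviations from group means at −0.139, 0.0112 and 0.0407. Arrays of different numbers correlated at −0.213 to 0.218. With 3 arrays per group these values cannot decide whether the numbers pair the arrays, and the main fit took them as unpaired. With the replicate block 0 genes and 0 members were called and the median stayed at 1.04.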
